A study of Oryza sativa and Triticum aestivum and Oryza sativa Japonica Group with 26 samples.

Results

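Trimethylation of histone H3 at lysine 4 (H3K4me3) was profiled by ChIP-seq, in which antibody-bound chromatin is sequenced, in young panicles, the flowering shoots that will bear the grain, of 2 rice cultivars. HHZ is an indica cultivar and gave 1 H3K4me3 library, and JZ1560 is a japonica cultivar and gave 2. The members described here are all peaks of these 3 lists, 65595 of the 355306 peaks in the 20 rice peak lists of the series, and the 3 libraries are 3 of its 26 samples. Plants of both cultivars were grown from germinated seed in soil in the same experimental field under natural conditions, and the chromatin was fixed with formaldehyde and precipitated with the same H3K4me3 antibody. The labels name no genotype, transgene or treatment beyond the cultivar. They do not say whether the 2 JZ1560 libraries came from separate plants or pools, so the spread between them may be technical. With 1 HHZ library there is no replicate check on that side, and no test was made between the cultivars. Each difference between cultivars is instead set beside the difference between the 2 JZ1560 libraries. The tissue label could not be set against marker genes, since no gene annotation on the coordinates of the peak lists was used here.

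H3K4me3 is placed on nucleosomes at the starts of transcribed genes by methyltransferases that act with the polymerase, and in plants it forms compact blocks of a few nucleosomes just after the start site. H3K36me3 follows it along transcribed gene bodies, H3K27ac marks active promoters, and H3K4me1 lies further into gene bodies. H3K27me3 is written by Polycomb complexes over silenced genes, and at some developmental genes it is found together with H3K4me3. Indica and japonica are the main subgroups of Asian cultivated rice and differ by many insertions and deletions of sequence. A peak list holds intervals and a score but no reads, so the depth of each library is unknown and no peak height can be compared between libraries.

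Differences between lists of 1 library each carry limits that touch all results below. The score, a value of the peak caller on an undefined scale, had a median of 333 in HHZ, 301 in JZ1560 replicate 1 and 2364 in JZ1560 replicate 2. It stood at 3100 or more for 12 HHZ peaks (0.0640%), 1 peak of JZ1560 replicate 1 (0.00471%) and 9878 peaks of JZ1560 replicate 2 (38.5%). JZ1560 replicate 2 thus stood apart from the other lists in score, and its part in the widths and peak numbers was not tested. HHZ H3K27me3 replicate 3, a list used only for overlaps, also stood apart: it touched 62.5% of the HHZ peaks that had a JZ1560 partner, against 10.5% and 13.6% for HHZ H3K27me3 replicates 1 and 2. Overlaps with HHZ H3K27me3 are therefore given for replicates 1 and 2, with replicate 3 beside them where its direction differed, and counts over all HHZ ChIP lists include replicate 3. A place where no peak was called and a place where a cultivar lacks the sequence, or where its reads could not be aligned, cannot be told apart in a peak list.

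HHZ H3K4me3 peaks were intermediate in width between the 2 JZ1560 lists. The median width was 1525 bp over 18741 peaks in HHZ, 1302 bp over 21209 peaks in JZ1560 replicate 1 and 2045 bp over 25645 peaks in JZ1560 replicate 2. The JZ1560 libraries therefore lay further apart from each other than either lay from HHZ. The interquartile range of the widths ran over 1213 to 1883 bp in HHZ, 1038 to 1617 bp in JZ1560 replicate 1 and 1746 to 2437 bp in JZ1560 replicate 2. The whole distribution of JZ1560 replicate 2 was displaced, since its 10th percentile of 1437 bp came close to the HHZ median. Broad domains of at least 3000 bp made up 507 HHZ peaks (2.71%), 241 peaks of JZ1560 replicate 1 (1.14%) and 2852 peaks of JZ1560 replicate 2 (11.1%). Width followed score within every list, with a Spearman correlation across peaks of 0.756 in HHZ, 0.665 in JZ1560 replicate 1 and 0.699 in JZ1560 replicate 2, given as a description because both come from the same reads. Covered length was 30.1 Mb in HHZ, 29.3 Mb in JZ1560 replicate 1 and 55.9 Mb in JZ1560 replicate 2.

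**Figure D1:**
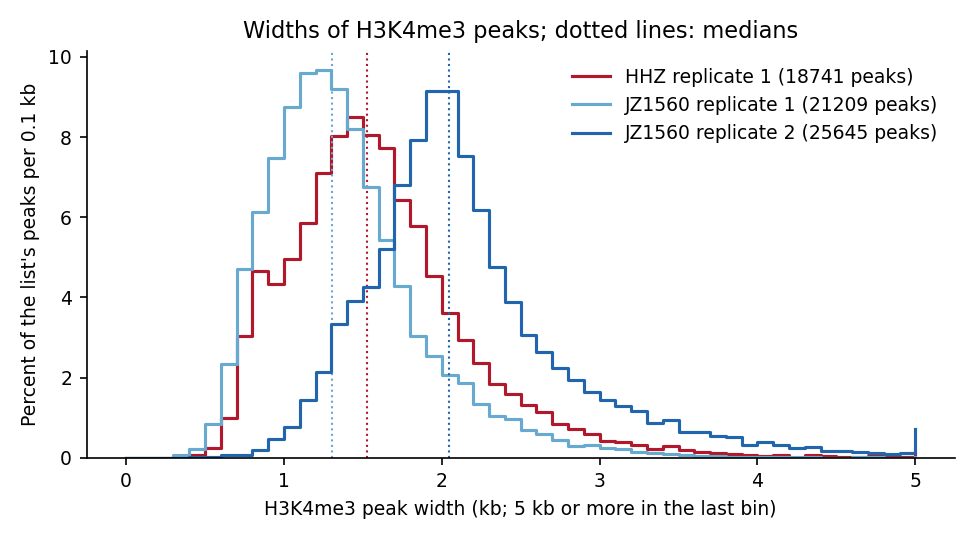
Width of H3K4me3 peaks in kb on the horizontal axis against the percent of each list's peaks per bin of 0.1 kb on the vertical axis, for HHZ replicate 1, JZ1560 replicate 1 and JZ1560 replicate 2. Dotted lines mark the medians of 1525, 1302 and 2045 bp in that order, and the HHZ curve lies between the JZ1560 curves.

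The broadest domain that both cultivars had among their 3 widest peaks was at chr7:23050757-23056913 in HHZ (6157 bp) and chr7:23050875-23056908 in JZ1560 replicate 1 (6034 bp). Its edges differed by 118 bp on the left and 5 bp on the right, and peaks of HHZ H3K36me3 and JZ1560 H3K36me3 covered 98.9% and 100% of the 2 intervals, each cultivar over its own. Input lists, from chromatin sequenced without precipitation, also had peaks there. The HHZ input covered 50.3% and the JZ1560 input 68.5% of the HHZ interval. The widest HHZ peak was at chr4:19396533-19403212 (6680 bp). All 9 HHZ ChIP lists and the HHZ input list had peaks over it, the input over 100% of its length. Neither JZ1560 H3K4me3 list had a peak at that place. The widest peak of JZ1560 replicate 2, at chr12:20506356-20518665 (12310 bp), was likewise covered to 100% by the HHZ input and to 100% by the JZ1560 input. The widest peak of JZ1560 replicate 1, at chr8:3544486-3550614 (6129 bp), was also 68.5% covered by the HHZ input and 80.8% by the JZ1560 input. It was covered by HHZ H3K4me3 over 56.7% of its length and by HHZ H3K27me3 over 57.3% and 81.5% in replicates 1 and 2.

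Most H3K4me3 peaks matched one-to-one between the cultivars, meaning that a peak overlapped exactly 1 peak of the other list by at least 1 bp and that this peak overlapped no other. Against JZ1560 replicate 1, 16168 HHZ peaks did so, 86.3% of HHZ peaks (95% Wilson interval 85.8 to 86.8, which covers counting error only) and 76.2% of the replicate 1 peaks. Against JZ1560 replicate 2, 16831 HHZ peaks did so, 89.8% of HHZ peaks (89.4 to 90.2) and 65.6% of the replicate 2 peaks. Between the JZ1560 libraries the number was 19351, 75.5% of the replicate 2 peaks and 91.2% of the replicate 1 peaks. On the same JZ1560 replicate 1 peaks, HHZ thus matched 76.2% and JZ1560 replicate 2 matched 91.2%.

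Peaks that failed to match singly did so in different ways in the 2 JZ1560 lists. Of the HHZ peaks, 1181 shared a single JZ1560 replicate 2 peak with another HHZ peak, against 307 that shared a JZ1560 replicate 1 peak. Accordingly 587 peaks of JZ1560 replicate 2 spanned several HHZ peaks, with a median width of 3791 bp, and 844 spanned several peaks of JZ1560 replicate 1. HHZ peaks with no overlap numbered 2013 (10.7%) against JZ1560 replicate 1 and 691 (3.69%) against JZ1560 replicate 2. In the other direction, 4401 peaks of JZ1560 replicate 1 (20.8%) and 8167 of JZ1560 replicate 2 (31.8%) met no HHZ peak.

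The edges of matched peaks were displaced by similar median amounts on the left and the right, and centres moved in neither direction on balance. HHZ edges lay a median of 97 bp (left) and 95 bp (right) outside those of JZ1560 replicate 1. Against JZ1560 replicate 2 the same shifts were -284 bp (left) and -283 bp (right), so HHZ edges lay inside. JZ1560 replicate 2 edges lay 410 bp (left) and 409 bp (right) outside those of JZ1560 replicate 1, the largest of the 3 shifts. The signed distance between peak centres had a median of -3 bp for HHZ minus JZ1560 replicate 1, -1.5 bp for HHZ minus JZ1560 replicate 2 and -0.5 bp for JZ1560 replicate 2 minus replicate 1. Single centres did differ, by a median of 113.5, 104 and 90.5 bp without regard to sign, and 44.9%, 48.6% and 54.0% of them lay within 100 bp, in the same order. Left and right shifts were nearly unrelated from peak to peak, with Pearson correlations across pairs of 0.0849, 0.0809 and 0.0141 in the same order, so a peak longer on one side was not regularly longer on the other beyond the common displacement.

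**Figure D2:**
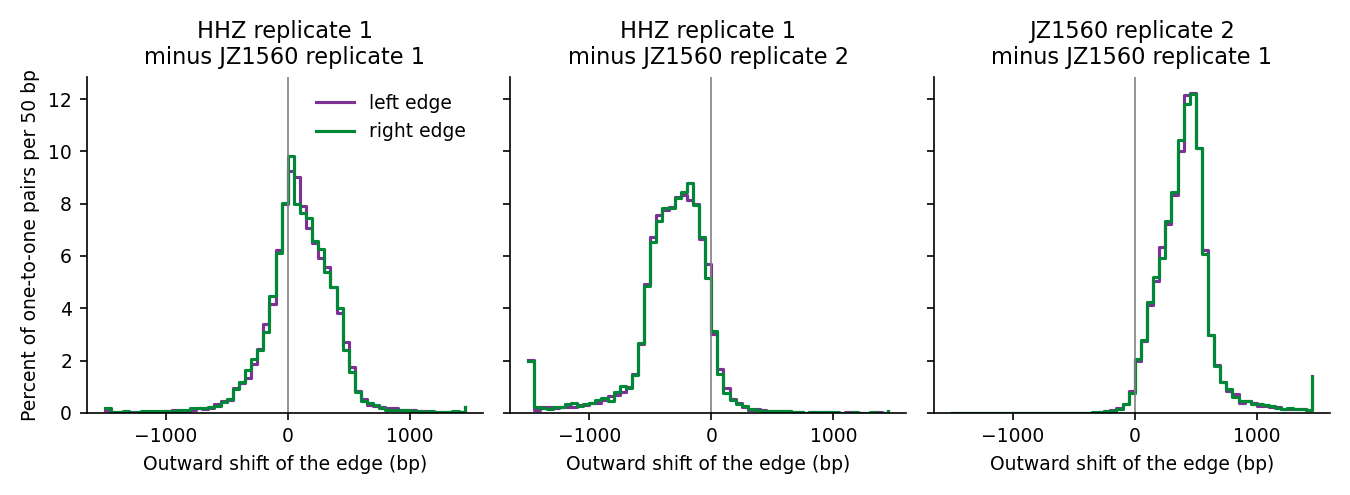
Outward shift of the left and right peak edge in bp (horizontal axis; positive where the first-named list reaches farther, values beyond 1500 bp in the outermost bins) against the percent of one-to-one pairs per 50 bp (vertical axis), for the 3 pairs of lists. Left and right curves nearly coincide, with medians of 97 and 95 bp for HHZ minus JZ1560 replicate 1, -284 and -283 bp for HHZ minus JZ1560 replicate 2, and 410 and 409 bp for JZ1560 replicate 2 minus replicate 1.

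The direction of the width difference between the cultivars depended on the JZ1560 library. HHZ peaks were wider than their JZ1560 replicate 1 partners in 71.8% of pairs, with a median difference of 207 bp and an interquartile range from -34 to 456 bp. They were wider than their JZ1560 replicate 2 partners in 3.53% of pairs, with a median difference of -578 bp (-834 to -356 bp). JZ1560 replicate 2 peaks were wider than those of replicate 1 in 99.8% of pairs, with a median of 801 bp (614 to 983 bp). On this evidence no width difference between HHZ and JZ1560 was larger than the difference between the JZ1560 libraries. Each value was alike on the 12 chromosomes, with chromosome medians of 153 to 236 bp for HHZ minus JZ1560 replicate 1, -603 to -564 bp for HHZ minus JZ1560 replicate 2 and 771 to 817 bp for JZ1560 replicate 2 minus replicate 1.

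Large changes of width were the exception between the cultivars. HHZ was at least 2 times as wide as JZ1560 replicate 1 in 344 of 16168 pairs (2.13%), and the reverse held in 182 pairs (1.13%). HHZ was at least 2 times as wide as JZ1560 replicate 2 in 8 of 16831 pairs (0.0475%), and the reverse held in 1917 pairs (11.4%). JZ1560 replicate 2 was at least 2 times as wide as replicate 1 in 3407 of 19351 pairs (17.6%), and the reverse held in 0 pairs (0.0%). The share past this fold was thus larger between the JZ1560 libraries than in either comparison with HHZ.

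The width differences were also compared by the size of the peak. From the narrowest to the widest quartile of pairs, by the mean width of the pair, the median of HHZ minus JZ1560 replicate 1 was 120.5, 198, 248.5 and 285 bp. The corresponding medians of JZ1560 replicate 2 minus replicate 1 were 792, 792, 761 and 872 bp. The difference from JZ1560 replicate 1 thus grew with peak width, and the JZ1560 replicate difference varied less in proportion. For HHZ minus JZ1560 replicate 2 the medians were -666, -565, -491 and -591 bp, with no steady order, so the growth was not seen against the other JZ1560 library.

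Containment of one peak in the other followed the same pattern. HHZ peaks enclosed their JZ1560 replicate 1 partner in 46.9% of pairs, and 40.9% of these pairs were staggered, with one edge farther out in each cultivar. HHZ peaks lay inside their JZ1560 replicate 2 partner in 86.0% of pairs. Replicate 1 peaks lay inside replicate 2 peaks in 97.0% of the JZ1560 pairs, and 2.99% were staggered. The rank order of widths was kept in part, with a Spearman correlation across pairs of 0.595 for HHZ and JZ1560 replicate 1, 0.607 for HHZ and JZ1560 replicate 2 and 0.723 for the JZ1560 libraries.

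Among 15259 loci where exactly 1 peak of each list matched, 81.4% of HHZ peaks, the HHZ width fell between the 2 JZ1560 widths in 10557 (69.2%). It was the narrowest in 4222 (27.7%) and the widest in 461 (3.02%). Both HHZ edges lay between the JZ1560 edges at 5751 loci (37.7%). The left HHZ edge lay beyond both JZ1560 edges at 7.07% of these loci and the right edge at 6.72%. It lay inside both JZ1560 edges at 31.9% of them on the left and 32.5% on the right. HHZ thus left the range of the 2 JZ1560 libraries inward more often than outward. The outer limit of that range came mostly from JZ1560 replicate 2, whose peaks enclosed those of replicate 1 in 97.0% of the JZ1560 pairs. The part of this displaced list in the asymmetry was not tested.

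The clearest single gain of width in HHZ was at chr2:3672423-3675690, where the HHZ peak spanned 3268 bp and the JZ1560 peaks 715 and 1118 bp in replicates 1 and 2. No input peak lay over it, HHZ H3K36me3 covered 86.3% of the interval spanned by the 3 peaks and JZ1560 H3K36me3 covered 43.8%. A larger ratio, 3.89 times the mean JZ1560 width, was found at chr4:19390797-19396530 (5734 bp in HHZ, 1303 and 1643 bp in JZ1560), but the HHZ input covered 100% of that interval. In the other direction, HHZ had a peak of 623 bp at chr10:19378872-19379494 where JZ1560 had peaks of 3129 and 3696 bp. HHZ H3K36me3 covered 43.2% of the interval spanned by the 3 peaks and both HHZ H3K27ac lists 0.0%, against 100% for JZ1560 H3K36me3 and 97.7% for JZ1560 H3K27ac. The HHZ input covered 0.0% and the JZ1560 input 97.3% of it. The HHZ H3K27ac lists overlapped only 20.9% and 19.7% of all HHZ peaks with a JZ1560 partner, so their absence here was the usual case. At chr9:18854744-18855443 HHZ had 700 bp, against 2520 and 3443 bp in JZ1560, with HHZ H3K36me3 over 0.0% and JZ1560 H3K36me3 over 89.1% of the interval, and with the HHZ input over 0.0% and the JZ1560 input over 67.6%. At chr4:31423188-31423901 HHZ had 714 bp, against 1841 and 4694 bp in JZ1560, so the JZ1560 libraries themselves differed widely there, and the HHZ input covered 0.0% and the JZ1560 input 45.0% of the interval.

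Peak edges were also compared by the side on which the gene body mark lay, since H3K36me3 marks the direction of transcription away from the start. Pairs were taken where windows of 500 bp beginning 2000 bp from the pair's centre were fully under H3K36me3 on one side and free of it on the other, in each cultivar involved. In 6074 such pairs, HHZ edges lay a median of 124 bp outside those of JZ1560 replicate 1 on the H3K36me3 side and 98 bp on the other side. In 6056 pairs with JZ1560 replicate 2 the medians were -248 bp on the H3K36me3 side and -271 bp on the other. Between JZ1560 replicate 2 and replicate 1 they were 399 bp and 408 bp over 7643 pairs. HHZ edges were thus relatively farther out toward the gene body by about the same small amount against either JZ1560 library, and that amount was far below the interquartile range of the shifts, which was 319 bp wide on the H3K36me3 side against JZ1560 replicate 1.

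Matched edges lay closer together in the replicate lists of HHZ H3K4me1, HHZ H3K27ac and JZ1560 H3K4me1 than in the 2 H3K4me3 lists of JZ1560. The median distance between matched edges was 410 bp for JZ1560 H3K4me3, 82 bp for JZ1560 H3K4me1, 49 bp for HHZ H3K4me1 and 0 bp for HHZ H3K27ac. The median width difference between replicate 2 and replicate 1 was 801 bp for JZ1560 H3K4me3, 122 bp for JZ1560 H3K4me1, and 0 bp for both HHZ marks. Identical edges made up 0.0362% of the matched edges in JZ1560 H3K4me3, 7.55% in JZ1560 H3K4me1, 33.7% in HHZ H3K4me1 and 65.2% in HHZ H3K27ac. Matching of whole peaks did not follow this order, since 91.2% of replicate 1 peaks matched one-to-one in JZ1560 H3K4me3, 92.5% in JZ1560 H3K4me1, 63.6% in HHZ H3K4me1 and 76.5% in HHZ H3K27ac.

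Merging the 3 lists gave 26386 loci, and most carried H3K4me3 in both cultivars. All 3 lists held a peak at 16311 loci (61.8%). HHZ alone held 681 (2.58%), and both JZ1560 libraries without HHZ held 3869 (14.7%). HHZ with JZ1560 replicate 2 held 1125, and HHZ with JZ1560 replicate 1 held 10. JZ1560 replicate 2 alone held 4292 (16.3%), and JZ1560 replicate 1 alone held 98. JZ1560 replicate 1 was therefore almost wholly contained in the loci of replicate 2.

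**Figure D3:**
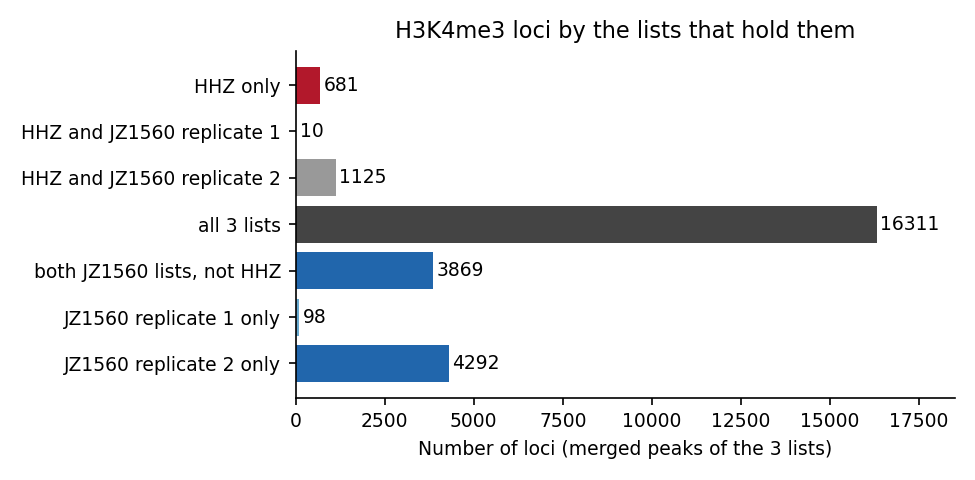
Number of merged H3K4me3 loci (horizontal axis) by the lists that hold a peak there (vertical axis). All 3 lists share 16311 loci, HHZ alone has 681, both JZ1560 lists without HHZ have 3869, and JZ1560 replicate 2 alone has 4292.

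Whether a peak counted as found in 1 cultivar alone depended on the JZ1560 library. Of the 4401 JZ1560 replicate 1 peaks without an HHZ partner, 4303 (97.8%) were present in JZ1560 replicate 2. Of the 8167 JZ1560 replicate 2 peaks without an HHZ partner, 3875 (47.4%) were present in replicate 1. Of the 2013 HHZ peaks that replicate 1 lacked, 1332 (66.2%) were met by replicate 2. A call of HHZ-only made against JZ1560 replicate 1 alone would thus have ended with the other library at most such peaks. Only the 681 HHZ peaks that met neither JZ1560 list are called HHZ-only here, and only the 3869 regions with a peak in both JZ1560 lists and none in HHZ are called JZ1560-only.

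Peaks lacking a partner were concentrated at low scores. In the highest score decile of HHZ peaks, 99.2% were met by JZ1560 replicate 1 and 99.6% by JZ1560 replicate 2. In the lowest decile, with scores up to 82.4, the shares were 55.9% and 86.9%. JZ1560 replicate 1 peaks were met by HHZ at 97.3% in the highest decile and 38.3% in the lowest, whereas JZ1560 replicate 2 met 100% and 96.7% of them. For JZ1560 replicate 2 peaks the lowest decile was met by HHZ at 10.5% and by JZ1560 replicate 1 at 9.79%, so its weakest peaks were absent from both other lists alike.

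**Figure D4:**
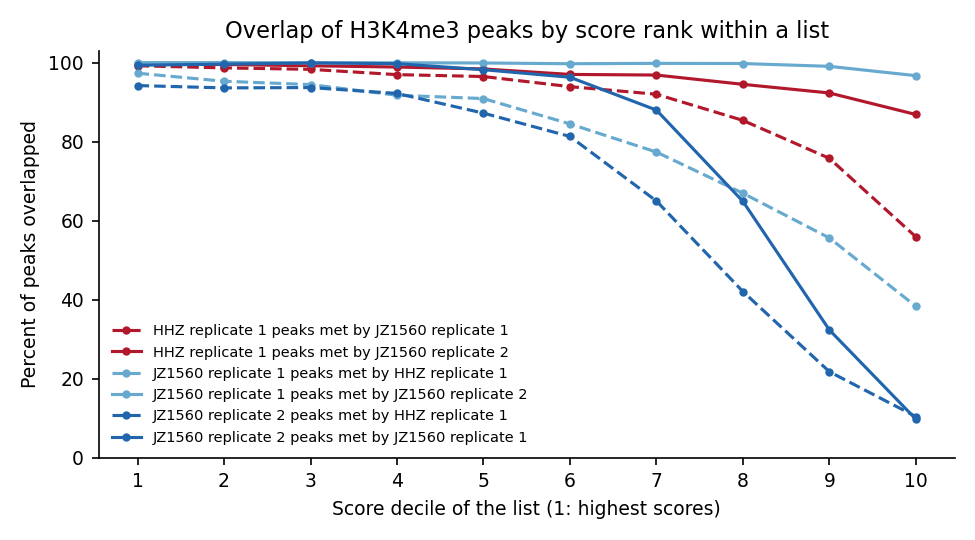
Percent of H3K4me3 peaks that overlap a peak of another list (vertical axis) by score decile within the peak's own list, from highest to lowest (horizontal axis), for each list against the other 2. In the lowest decile, JZ1560 replicate 2 meets 86.9% of HHZ peaks and 96.7% of JZ1560 replicate 1 peaks, while HHZ meets 38.3% of JZ1560 replicate 1 peaks and 10.5% of JZ1560 replicate 2 peaks.

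HHZ-only peaks were narrow and weak and carried less of the marks of transcription than shared peaks. Their median width was 1034 bp and their median score 113, against 1541 bp and 344 in the 18060 HHZ peaks with a JZ1560 partner. In HHZ itself, H3K36me3 overlapped 52.4% of HHZ-only peaks and 85.5% of partnered peaks. H3K4me1 of HHZ overlapped 13.5% and 15.1% of HHZ-only peaks in its 2 libraries, against 38.5% and 37.5% of partnered peaks. These traits were not particular to HHZ-only peaks. The 1332 HHZ peaks met by JZ1560 replicate 2 and not by replicate 1 had a median width of 1029 bp and a median score of 93.3. HHZ H3K36me3 overlapped 39.0% of those peaks, and HHZ H3K4me1 overlapped 10.7% and 9.76%. HHZ H3K27ac differed least, at 18.2% and 18.5% of HHZ-only peaks in its 2 libraries, against 20.9% and 19.7% of partnered peaks. Both HHZ H3K27ac lists thus had no peak at most partnered peaks, whereas JZ1560 H3K27ac overlapped 89.7% of them. The small difference therefore says little about H3K27ac at HHZ-only peaks.

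H3K27me3 ran the opposite way in 5 of its 6 lists. HHZ H3K27me3 overlapped 21.6% and 27.3% of HHZ-only peaks in replicates 1 and 2, against 10.5% and 13.6% of partnered peaks. In HHZ replicate 3 the direction was turned, at 39.6% of HHZ-only peaks and 62.5% of partnered peaks. JZ1560 H3K27me3 overlapped 7.34%, 12.8% and 15.0% of HHZ-only peaks in its 3 libraries, against 2.43%, 6.02% and 7.41% of partnered peaks. Both HHZ replicates and no JZ1560 list carried H3K27me3 at 61 HHZ-only peaks (8.96%, Wilson 7.04 to 11.3), against 3.52% of partnered peaks. All 3 JZ1560 lists and neither HHZ replicate carried it at 6 HHZ-only peaks (0.881%, 0.404 to 1.91), against 0.0941% of partnered peaks. At 479 HHZ-only peaks (70.3%) none of these 5 lists had H3K27me3, against 85.2% of partnered peaks.

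Most places marked only in HHZ were free of every JZ1560 peak. JZ1560 H3K36me3 overlapped 10.9% of HHZ-only peaks and 88.8% of partnered peaks, and JZ1560 H3K27ac overlapped 14.8% and 89.7%. At 423 HHZ-only peaks (62.1%) no other JZ1560 mark had a peak, and at 392 (57.6%) the JZ1560 input had none either, against 1.83% of partnered peaks. The HHZ input overlapped 30.8% of HHZ-only peaks and 53.6% of partnered peaks. Outside the HHZ input, 471 HHZ-only peaks remained, and 310 of them (65.8%) had no JZ1560 peak of any other mark or input, against 3.40% of partnered peaks outside it.

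The strongest HHZ-only peaks by score were at places where the HHZ input also had peaks. The first, at chr6:18953114-18954625 (1512 bp), had a score of 3100 and lay 71.2% under HHZ input, with peaks of all 9 HHZ ChIP lists and of no JZ1560 list. The second was the widest HHZ peak, on chromosome 4, already described. It began directly after the HHZ peak at chr4:19390797-19396530, which matched a peak in each JZ1560 list and also lay 100% under HHZ input. These 2 HHZ peaks may thus be parts of 1 block. The third, at chr8:12369922-12372409 (2488 bp, score 1762), and the fourth, at chr8:21953607-21955813 (2207 bp, score 1553), lay 100% under HHZ input and 100% under HHZ H3K36me3. The fifth, at chr3:9683890-9686242 (2353 bp, score 1085), lay 62.6% under input and 100% under HHZ H3K36me3. Apart from the place on chromosome 4, JZ1560 had no input peak at any of them, and its only ChIP peak there was H3K27me3 of replicate 1 over 31.8% of the third. At the place on chromosome 4 the JZ1560 input covered 87.1%. The part of input in these 5 places was not tested.

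JZ1560-only regions were nearer in width to shared regions. Their number exceeded that of HHZ-only peaks in the full lists (681 in HHZ and 3869 in JZ1560), but with lists of equal peak numbers the counts were 1818 HHZ-only and 2040 JZ1560-only. The 3869 regions covered 7.86 Mb with a median of 1925 bp, against a median of 2172 bp for the 16333 JZ1560 regions that had an HHZ partner. In the single list of JZ1560 replicate 1, peaks without an HHZ partner had a median of 1047 bp, against 1363 bp for one-to-one peaks. For HHZ peaks matched to that list the medians were 1031 and 1572 bp, so part of the contrast lies in how the sets were built. In JZ1560 itself, H3K27ac overlapped 78.4% of JZ1560-only regions and 93.3% of shared ones. JZ1560 H3K36me3 overlapped 56.0% against 93.6%, and JZ1560 H3K4me1 overlapped 24.2% and 26.8% in its 2 libraries against 77.3% and 78.9%. H3K27ac was therefore close to its share at shared regions, while both gene body marks were farther below theirs.

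Chromatin of HHZ at the JZ1560-only regions had H3K27me3 peaks more often than at shared regions in replicates 1 and 2, and H3K36me3 peaks less often. HHZ H3K27me3 overlapped 29.3% and 36.8% of them in replicates 1 and 2, against 11.1% and 14.2% of shared regions. HHZ H3K27me3 replicate 3 went the other way, at 36.0% of them and 65.0% of shared regions. HHZ H3K36me3 overlapped 9.67% of them and 89.6% of shared regions, and the HHZ input overlapped 23.4% and 59.3%. JZ1560 H3K27me3 was also more frequent there, at 10.1%, 20.7% and 23.7% in its 3 libraries against 2.67%, 6.09% and 7.81% of shared regions. Both HHZ replicates and no JZ1560 list carried H3K27me3 at 323 JZ1560-only regions (8.35%, Wilson 7.52 to 9.26), against 3.93% of shared regions. All 3 JZ1560 lists and neither HHZ replicate carried it at 41 (1.06%, 0.782 to 1.43), against 0.153% of shared regions. At 1535 JZ1560-only regions (39.7%) no other HHZ mark had a peak, against 2.31% of shared regions. Peaks held by JZ1560 replicate 2 alone had HHZ H3K27me3 still more often, at 41.7% and 50.7% in replicates 1 and 2. HHZ H3K36me3 overlapped 6.29% of those peaks. Neither trait was thus particular to the regions found in both JZ1560 libraries.

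**Figure D5:**
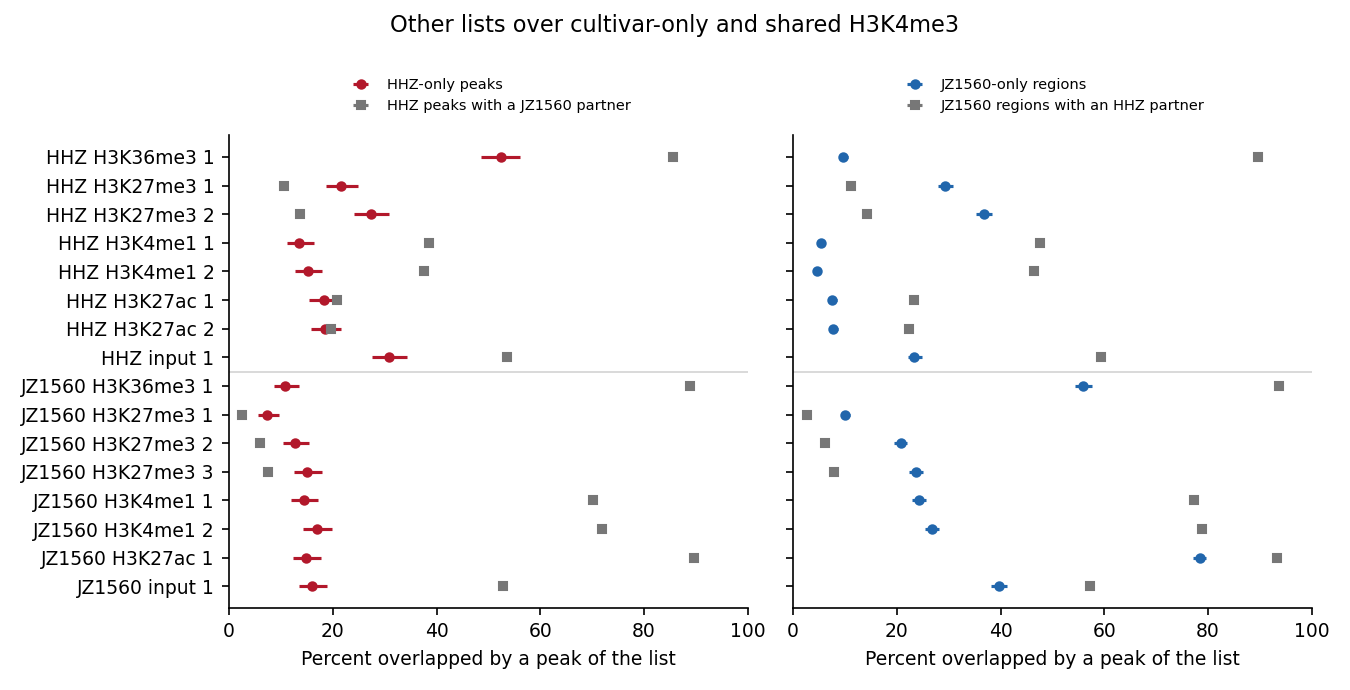
Percent of H3K4me3 regions overlapped by a peak of each other list (horizontal axis), with lists named by cultivar, mark and replicate (vertical axis) and bars for 95% Wilson intervals. At left are HHZ-only peaks and HHZ peaks with a JZ1560 partner, at right JZ1560-only regions and JZ1560 regions with an HHZ partner; HHZ H3K36me3 overlaps 52.4% and 85.5% in the left pair and 9.67% and 89.6% in the right pair.

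The 5 JZ1560-only regions named by score included places with no HHZ peak of any kind. Since 4 of them stood at the JZ1560 replicate 2 score of 3100 that many of its peaks share, their order among such peaks came from width. At chr8:4946676-4948725 (2050 bp) the JZ1560 scores were 556 and 3129 in replicates 1 and 2, H3K27ac covered 99.9% and H3K36me3 82.2% in JZ1560, and neither cultivar's input had a peak. At chr12:6913857-6918156 (4300 bp) again no HHZ list had a peak, while JZ1560 H3K27ac covered 99.6% and JZ1560 input 48.3%. At chr8:28402143-28407215 (5073 bp) HHZ H3K36me3 covered 4.73%, while JZ1560 H3K36me3, both JZ1560 H3K4me1 libraries and the JZ1560 input covered 100%. At chr2:28312484-28316871 (4388 bp) HHZ had H3K27me3 instead, over 80.4% and 100% of the region in replicates 1 and 2, with the HHZ input over 73.8%. The fifth, at chr1:21413488-21418071 (4584 bp), had HHZ H3K27me3 over 31.5% in replicate 2 and 0.0% in replicate 1. At these last 2 regions JZ1560 H3K27ac covered 100%, and the JZ1560 input covered 99.1% of the one on chromosome 2 and 35.1% of the one on chromosome 1.

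Cultivar-only marking was unevenly spread over the chromosomes. Its share was lowest on chromosome 3, at 2.12% of HHZ peaks (Wilson 1.63 to 2.75) for HHZ-only and 14.7% of JZ1560 regions (13.4 to 16.1) for JZ1560-only. The share was highest on chromosome 11, at 6.74% (5.26 to 8.60) and 30.3% (27.6 to 33.1) in the same order. Both directions thus had their extremes on the same 2 chromosomes. Peaks held by JZ1560 replicate 2 alone had theirs there too, at 14.4% of its peaks on chromosome 3 and 20.1% on chromosome 11. The pattern was thus not particular to differences between the cultivars. HHZ-only peaks lay a median of 3895 bp from the nearest JZ1560 H3K4me3 peak, and JZ1560-only regions 7274 bp from the nearest HHZ peak. Both distances were larger than the edge shifts of matched peaks.

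JZ1560 replicate 2 covered 20.1 Mb that neither JZ1560 replicate 1 nor HHZ covered, 35.9% of its own length. The corresponding length was 0.119 Mb for JZ1560 replicate 1 and 1.23 Mb for HHZ. Most of the extra cover, 13.1 Mb (65.1%), flanked peaks that JZ1560 replicate 2 shared with another list, and 6.99 Mb (34.9%) lay in the 4292 peaks that it alone held. A flank was present at 21171 of its 21353 shared peaks (99.1%), with a median length of 284 bp where an outer edge had one (interquartile range 158 to 422 bp). Gaps bridged between peaks of the other lists were a small part, 874 gaps and 0.308 Mb. JZ1560 replicate 2 contained 95.9% of HHZ bases and 99.6% of JZ1560 replicate 1 bases, whereas JZ1560 replicate 1 contained 73.9% of HHZ bases.

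The peaks held by JZ1560 replicate 2 alone lay under H3K27me3 more often than its flanks did in each H3K27me3 list of both cultivars, by a small margin in HHZ replicate 3. JZ1560 H3K27me3 covered 9.61%, 30.7% and 34.8% of their bases in its 3 libraries, against 2.56%, 7.19% and 9.44% of the flanks and 1.81%, 5.09% and 6.16% of the bases shared with JZ1560 replicate 1. JZ1560 H3K36me3 covered 9.02% of the lone peaks, 50.2% of the flanks and 86.7% of the shared bases. JZ1560 H3K27ac covered 40.2%, 60.9% and 90.7% in the same order. HHZ H3K27me3 covered 37.7% and 47.3% of the lone peaks in replicates 1 and 2, 12.997% and 16.9% of the flanks and 8.57% and 11.7% of the shared bases. HHZ H3K27me3 replicate 3 did not show this order, at 33.4%, 30.3% and 49.1%. JZ1560 input covered 19.9%, 29.0% and 42.6% of these bases and was least over the lone peaks.

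The lone peaks of JZ1560 replicate 2 had a median width of 1520 bp and a median score of 199. Only 9 of them reached the score of 3100, against 9869 of its shared peaks. Both HHZ H3K27me3 replicates 1 and 2 and all 3 JZ1560 H3K27me3 lists overlapped 633 of them (14.7%, Wilson 13.7 to 15.8). The share was 7.99% of JZ1560-only regions and 2.10% of JZ1560 regions with an HHZ partner. The longest stretch, at chr10:17261686-17266570 (4885 bp), lay under HHZ H3K27me3 over 29.8% and 98.8% in replicates 1 and 2, and no other JZ1560 ChIP list had a peak there, while the JZ1560 input covered 33.4% of it. Another, at chr1:38688614-38692974 (4361 bp), lay under HHZ H3K27me3 over 100% in replicates 1 and 2 and over 53.1% in replicate 3. JZ1560 H3K27me3 covered 27.4%, 68.5% and 82.5% of that stretch in its 3 libraries. JZ1560 H3K27ac covered 77.1% of it, the JZ1560 input 29.1% and the HHZ input 4.52%. HHZ H3K27ac covered 18.8% in replicate 1 and 0.0% in replicate 2. A further one, at chr6:25976758-25981376 (4619 bp), lay under HHZ H3K36me3 over 32.8% and under HHZ input over 52.0%, and JZ1560 had no peak of another mark or of its input there.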

How the data were processed

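The H3K4me3 libraries were sequenced as single reads of 51 bp, per the labels' protocols. Per the file headers, MACS called the peaks of every library on its own. The score of each peak is the authors' deposited value on a scale the headers do not define. The submitters' processing notes list BWA, FastQC, HTSeq and TopHat2, with no version. The build, the control library and the peak threshold were not given in the sources used here. Depth per library is unknown, and wider or more peaks can follow from depth. Without a control, a caller also keeps places that an input library would recover.

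Peak starts were counted from 1. Lists were compared on their shared coordinates by overlaps of at least 1 bp, merged cover and signed edge distances, with Python 3.11.15, numpy 2.4.6, pandas 2.3.3 and scipy 1.17.1. The matching was tested on simulated data. The 95% Wilson intervals on shares cover counting error alone. The HHZ group had 1 library, so no test across libraries was made. Members, comparisons and rules were chosen with earlier results of these data known. Named regions were the 3 widest peaks per list, the 5 cultivar-only places of highest score per direction, the 3 matched loci of largest width ratio per direction and the 5 longest stretches of JZ1560 replicate 2 outside the other lists. The text names a part of these. Alternatives were a score minimum of 100, lists of equal peak numbers by score, a 50% overlap minimum, lists without peaks over their own cultivar's input, lists without the sequences Un and Sy, and each JZ1560 replicate left out. Wheat lists, RNA counts and re-sequencing were not used here.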

Additional observations from a re-analysis of the deposited data

How the results depend on the processing

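Leaving out a JZ1560 replicate had effects on most results. The difference in median width, HHZ minus JZ1560 mean, was -148.5 bp with both replicates, and ran from -520 bp without replicate 1 to 223 bp without replicate 2. The width difference of matched pairs was -185.5 bp and ran from -578 to 207 bp, and the difference in covered length was -12.5 Mb and ran from -25.8 to 0.757 Mb. All 3 signs turned without replicate 2. The count of HHZ-only peaks, 681, ran from 691 to 2013, that of JZ1560-only regions, 3869, from 4401 to 8167, and the cover of JZ1560 replicate 2 outside the other lists, 20.1 Mb, was 27.0 Mb without replicate 1 and has no value without replicate 2. With scores of 100 or more, the mean one-to-one share of HHZ peaks, 88.0%, was 90.9%, HHZ-only peaks numbered 424 and the extra cover was 21.1 Mb. With equal peak numbers these were 82.0%, 1818 and 12.5 Mb, and JZ1560-only regions numbered 2040. Without peaks over an input peak they were 52.9%, 3503 and 11.95 Mb. This removal keeps 8843 HHZ peaks, 10504 of JZ1560 replicate 1 and 13178 of JZ1560 replicate 2, and takes peaks from each cultivar separately. Without Un and Sy the extra cover was 20.0 Mb. An overlap minimum of 50% could not be applied to median width, covered length or extra cover. Shortening every JZ1560 replicate 2 peak by the median shifts of 410 and 409 bp, an alternative chosen after seeing the data, left 6.01 Mb of extra cover, 750 HHZ-only peaks and 3877 JZ1560-only regions, and a difference in covered length of -2.03 Mb. The median edge distance, 232 bp, ran from 175 to 289 bp. In all, 38 values stayed within the spread between replicates or counting error (counts within 1.5 times), 15 moved by more and 3 changed sign. For means over the JZ1560 replicates, leaving 1 out could only keep the value within that spread or turn its sign. Those entries among the 38 therefore do not show stability. Counts of cultivar-only places and the extra cover cannot fall when a JZ1560 list is left out, because fewer lists must be missed or met. The direction of their changes in those settings was thus fixed by the definitions. Extra cover was judged by counting error over single bases, so a change from 20.05 to 20.04 Mb counted as moved. No paired analysis was possible because the cultivars share 1 replicate number in H3K4me3. Peak lists do not show depth, so a missing peak is not shown to be an absent mark.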

Other observations

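HHZ-only H3K4me3 peaks also occurred side by side. A run was a stretch of at least 3 HHZ peaks in a row with no JZ1560 H3K4me3 peak over any of them, and there were 17 runs with 58 peaks, the longest of 6. In 7 of the 17 no JZ1560 ChIP or input list had a peak anywhere between the outermost edges. One of these, at chr7:18412046-18466174, spanned 54.1 kb and held 3 HHZ peaks. Another run, of 4 peaks at chr6:3094842-3105938 (11.1 kb), lay over 2043 bp of JZ1560 H3K36me3 and over 2039 and 2036 bp of JZ1560 H3K4me1, and no other JZ1560 list had a peak there.

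Runs of at least 5 JZ1560-only regions numbered 46 and held 268 of the 3869 JZ1560-only regions. The longest had 12 regions at chr10:1800010-2088459, a span of 288 kb. HHZ H3K27me3 covered 48148 and 48351 bp of that span in replicates 1 and 2, and HHZ H3K36me3 covered 1106 bp. All 9 HHZ ChIP lists had peaks in the span. HHZ H3K4me3 covered 822 bp, HHZ H3K27ac 1654 and 2198 bp, and HHZ H3K4me1 2134 and 2092 bp in replicates 1 and 2. In a run of 8 regions at chr1:19577974-19876298 (298 kb), HHZ H3K27me3 covered 969, 980 and 986 bp in replicates 1, 2 and 3. Cover was of similar length for HHZ H3K27ac, at 949 and 965 bp in replicates 1 and 2, and for the HHZ input, at 959 bp. HHZ H3K36me3, H3K4me1 and H3K4me3 had no peak in that run. In 3 of the 46 runs HHZ had no peak of any mark or of its input. The definitions of the runs were set after the peak lists were seen.

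HHZ peaks met by JZ1560 replicate 2 and not by replicate 1 numbered 1332, with a median width of 1029 bp and a median score of 93.3. HHZ H3K27me3 overlapped 29.5% and 35.4% of them in replicates 1 and 2, against 21.6% and 27.3% of HHZ-only peaks. HHZ H3K36me3 overlapped 39.0% of them and 52.4% of HHZ-only peaks. JZ1560 H3K27me3 overlapped 8.33%, 22.8% and 25.6% of them in its 3 libraries, against 7.34%, 12.8% and 15.0% of HHZ-only peaks. HHZ H3K27me3 replicate 3 overlapped 51.7% of them and 39.6% of HHZ-only peaks.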
